A study of Mus musculus with 12 samples.

Results

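The integrin and laminin chains described here are 36 genes, chosen by name from the 53801 gene rows of the deposited tables: 18 integrin alpha chains, 8 integrin beta chains and 10 laminin chains. All cells came from cutaneous squamous cell carcinomas of FVB mice, and 12 RNA-seq libraries form 4 groups of 3. Reporter-positive carcinoma cells and reporter-negative carcinoma cells were basal tumor cells carrying a YFP mark at the Rosa locus, sorted for surface CD49f and CD29 and then divided by an mScarlet reporter of TGF-beta signalling. FceRIa-positive macrophages and FceRIa-negative macrophages were leukocytes sorted from these tumors for CD45 and F4/80 and then divided by surface Fc epsilon receptor I alpha. CD49f is the protein of Itga6 and CD29 that of Itgb1, so the carcinoma sort itself selected for 2 of the 36 genes. The labels do not say how the tumors arose, what drives the YFP mark, how old the mice were, or whether a library came from 1 animal, so p-values measure the spread between these libraries, which may be technical.

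Integrins are receptors of an alpha and a beta chain that span the cell membrane and tie the extracellular matrix, or a partner cell, to the cytoskeleton. The pair of Itga6 and Itgb4 sits in hemidesmosomes, where basal keratinocytes hold on to laminin of the basement membrane, and Itga3 with Itgb1 also binds laminin. Laminins are assembled from an alpha, a beta and a gamma chain, and Lama3 and Lamb3 are chains of the laminin that anchors epidermis to dermis. Chains with Itgav bind matrix and latent TGF-beta through an RGD sequence, and those with Itgb6 or Itgb8 can release active TGF-beta. Leukocytes use their own set: Itgb2 pairs with Itgal, Itgam, Itgax or Itgad, Itgb7 pairs with Itga4 or Itgae, and Itgae with Itgb7 binds E-cadherin on epithelial cells.

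Promoter sequence is shown for a leukocyte pair of neighbouring genes that were high in macrophages and near 0 in carcinoma cells, and for a laminin chain with the opposite pattern. Each is the stretch from 250 to 6 bases before the gene's start in RefSeq (GRCm38.p6), 245 bases on the plus strand, 5′ to 3′, and overlaps no exon of GENCODE M21. Itgam lies at chr7:128062390-128062634 in this window, Itgax at chr7:128129300-128129544 and Lamb3 at chr1:193301744-193301988. GENCODE M21 starts Lamb3 earlier than RefSeq does, at chr1:193207699-193343878, so the Lamb3 window lies inside the GENCODE gene, between exons. Capitals mark matches on either strand to GAGGAA, a core bound by the myeloid factor PU.1, and to TGANTCA, the motif of AP-1 factors.
Itgam: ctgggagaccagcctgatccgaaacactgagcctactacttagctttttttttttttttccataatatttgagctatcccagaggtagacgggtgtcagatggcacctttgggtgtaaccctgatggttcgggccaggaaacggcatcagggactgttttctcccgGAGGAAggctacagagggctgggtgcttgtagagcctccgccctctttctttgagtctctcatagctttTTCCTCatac
Itgax: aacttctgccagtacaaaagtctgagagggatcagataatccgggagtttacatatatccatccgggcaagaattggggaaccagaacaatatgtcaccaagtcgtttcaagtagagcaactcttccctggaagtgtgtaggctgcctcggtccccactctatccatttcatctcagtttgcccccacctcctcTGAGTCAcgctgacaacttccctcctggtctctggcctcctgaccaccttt
Lamb3: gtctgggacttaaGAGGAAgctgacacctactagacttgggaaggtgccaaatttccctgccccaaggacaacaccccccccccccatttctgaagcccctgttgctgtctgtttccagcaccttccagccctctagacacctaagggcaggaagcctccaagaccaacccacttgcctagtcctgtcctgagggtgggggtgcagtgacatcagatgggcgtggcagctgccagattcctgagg
GAGGAA starts 84 bases before the start of Itgam, and its reverse complement TTCCTC 15 bases before it. Itgax holds a TGANTCA match at 56 bases before its start and no GAGGAA, and Lamb3 holds GAGGAA at 237 bases before its start. Over the same 245 bases of 32851 RefSeq promoters, 22.7% hold GAGGAA and 6.66% hold TGANTCA. Of 36 members, 23 matched an entry, with 26 starts, of which 12 held GAGGAA and 1 held TGANTCA. A match of letters is a description of the window, not a binding site.

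Total counts were 27951632 to 35088897 in the carcinoma libraries and 33704786 to 40041144 in the macrophage libraries, so that 3 counts correspond to 0.0749 to 0.107 CPM, the count scaled to the library's total. The labelled cell types held: 10 keratinocyte markers summed to 78845 to 93023 CPM in carcinoma cells and 1083 to 3509 CPM in macrophages, and 10 macrophage markers to 37.7 to 106 CPM in carcinoma cells and 23353 to 25294 CPM in macrophages, with the 2 libraries of each replicate number summed. In both carcinoma groups, libraries 1 and 3 differed little beyond counting noise (a chi-square test over genes gave 1.65 per degree of freedom in positive cells and 3.13 in negative cells), while pairs with library 2 gave 46.8 to 98.9. Library 2 also had the highest leukocyte marker sums, at 25.1, 78.5 and 25.4 CPM in reporter-positive cells and 36.5, 65.1 and 33.7 CPM in reporter-negative cells. Among macrophages, replicate 2 was rich in Y-linked Ddx3y and nearly without Xist, replicate 3 was the reverse, and replicate 1 held both.

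Carcinoma cells were first set against macrophages, with the 2 libraries of each replicate number summed, 3 sums in each class. Of 35 chains tested, 16 were higher and 13 lower in carcinoma cells (edgeR, adjusted p under 0.05), and every sum of one class lay past every sum of the other for 30. Both the 16 and the 30 include Itga6 and Itgb1, for which the carcinoma sort had selected, so their calls are no separate result. Among all 16843 genes tested, 36.8% were higher and 42.0% lower by the same test (78.8% either way), and the sums did not overlap for 83.4% (38.9% higher and 44.5% lower), so the members' shares are near the background. The median log2 difference was -0.05 over the members and -0.12 over all genes. Cell class, sort and table cannot be told apart here.

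Laminin-binding integrins were the epithelial set. Itga3 had 1332, 1067 and 1316 CPM in carcinoma cells and 13.1, 9.22 and 1.34 CPM in macrophages, a log2 difference of 7.29 ± 0.91 (edgeR adjusted p = 0.000400). Itgb4, the hemidesmosome beta chain, had 1339.6, 1287 and 1311 CPM in carcinoma cells and 15.2, 9.33 and 1.89 CPM in macrophages (7.22 ± 0.83, edgeR adjusted p = 0.000286). Carcinoma cells were even in Itgb4, whereas the macrophage sums spread several-fold, with replicate 3 lowest for both genes. Itga7, a laminin receptor of muscle, had 21.7, 38.9 and 20.3 CPM in carcinoma cells and 1.02, 0.367 and 0.338 CPM in macrophages (5.55 ± 0.56, edgeR adjusted p = 0.000158). The sorted chains are given as description only: Itga6 had 1196 ± 102 CPM in carcinoma cells and 80.96 ± 16.8 CPM in macrophages (SD, n = 3 each). Itgb1 had 1271 ± 111 CPM in carcinoma cells and 599 ± 31.01 CPM in macrophages, the smaller gap of the 2 sorted chains.

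The leukocyte alpha chains were at trace levels in carcinoma cells. Itgax, the CD11c chain, had 0.535, 2.79 and 0.532 CPM in carcinoma cells and 838, 938 and 913 CPM in macrophages, -9.45 ± 0.86 on the log2 scale (edgeR adjusted p = 0.000107). Its neighbour Itgam, the CD11b chain, whose end lies 11056 bases before the start of Itgax, had 0.321, 1.12 and 0.548 CPM in carcinoma cells and 358, 294 and 275 CPM in macrophages (-8.87 ± 0.50, edgeR adjusted p = 1.73e-05). Both peaked in replicate 2 among the carcinoma sums, as the leukocyte markers did, and the part of such cells in these traces was not tested. In bulk libraries, fewer cells of a type and less RNA per cell cannot be told apart. Itgal, the LFA-1 alpha chain, differed by -9.19 ± 0.44 and Itgad by -8.25 ± 0.19. Itga4, which binds Vcam1 and fibronectin, had 0.321, 0.264 and 0.355 CPM in carcinoma cells and 91.7, 94.1 and 94.8 CPM in macrophages. Itgae differed by -7.25 ± 0.47 and the shared beta chain Itgb2 by -9.14 ± 0.76. All 6 leukocyte alpha chains passed the test, as did 78.8% of all genes. Itga4, Itgad and Itgae were too low to be tested within carcinoma cells, so their passing here reflects their level in macrophages and adds no separate support. Itgb7 did not pass the test and had 9.82, 10.1 and 9.42 CPM in carcinoma cells and 16.9, 9.55 and 18.6 CPM in macrophages (-0.62, 95% interval -1.23 to -0.00, edgeR adjusted p = 0.0608). The T and NK cell markers in the same carcinoma sums came to 0.677 to 1.19 CPM, with Cd3e, Cd3d, Cd2, Ncr1, Klrb1c and Gzma at 0 counts.

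Receptors for RGD and other matrix ligands were divided between the classes. Itgb5, which pairs with Itgav and binds vitronectin, had 55.8, 69.2 and 54.1 CPM in carcinoma cells and 749.8, 797 and 677 CPM in macrophages (-3.63 ± 0.15, edgeR adjusted p = 6.03e-06). Itgb6, its epithelial counterpart, had 21.7, 18.1 and 22.96 CPM in carcinoma cells and 0.730, 0.708 and 0.0563 CPM in macrophages (5.38 ± 0.75, edgeR adjusted p = 0.000683). Their common partner Itgav was present in both, at 78.5 ± 2.22 CPM in carcinoma cells and 155 ± 28.3 CPM in macrophages (SD, n = 3 each; -0.98 ± 0.14, edgeR adjusted p = 0.000792). The fibronectin receptor chain Itga5 had 147, 95.2 and 144 CPM in carcinoma cells and 176, 162 and 175 CPM in macrophages (-0.41, 95% interval -0.83 to 0.02, edgeR adjusted p = 0.0721). Itga9, a receptor for tenascin-C and Vcam1, was a macrophage chain, with 0.244, 0.446 and 0.468 CPM in carcinoma cells and 162, 169 and 132 CPM in macrophages (-8.64 ± 0.27, edgeR adjusted p = 3.38e-06). The collagen receptor chain Itga2 was epithelial, with 132, 75.5 and 129 CPM in carcinoma cells and 1.66, 1.71 and 0.267 CPM in macrophages (6.52 ± 0.69, edgeR adjusted p = 0.000205). The remaining collagen and RGD chains were low: Itga1, Itga8, Itgb3 and Itgb8 passed the test at 1.53 to 3.83, 0.244 to 3.35, 0.231 to 2.57 and 0.394 to 2.92 CPM, lower in carcinoma cells except Itgb8. Itga2b at 0.783 to 1.62 CPM and Itga10 at 0.239 to 0.759 CPM did not pass, and Itga11 at 0.113 to 0.214 CPM was not tested.

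Laminin transcripts were mostly higher in carcinoma cells. Lama3 had 1493, 1176 and 1489.7 CPM in carcinoma cells and 19.1, 20.1 and 2.27 CPM in macrophages (6.65 ± 0.89, edgeR adjusted p = 0.000555). Lamb3 had 1457, 1199 and 1449 CPM in carcinoma cells and 19.7, 17.5 and 5.94 CPM in macrophages (6.57 ± 0.53, edgeR adjusted p = 6.75e-05). Again the third macrophage sum was far below the others. The alpha chains Lama5, common in epithelial basement membrane, and Lama1, the embryonic one, differed by 5.63 ± 0.18 and 6.09 ± 0.56, and Lamb1 by 5.53 ± 0.47, all higher in carcinoma cells. Lamc1, the gamma chain of most laminins, was shared: 86.2, 82.97 and 86.7 CPM in carcinoma cells and 59.01, 30.4 and 43.8 CPM in macrophages (0.94 ± 0.23, edgeR adjusted p = 0.00817). Lamb2 had 11.6, 10.3 and 12.3 CPM in carcinoma cells and 9.43, 5.06 and 5.82 CPM in macrophages (0.75 ± 0.26, edgeR adjusted p = 0.0322). Lamc3 passed the test below 1 CPM, and the mesenchymal alpha chains Lama2 and Lama4 did not pass. Lama1 was too low to be tested within macrophages, and Lamc3 within either class. The passing of Lama1 and Lamc3 here reflects their level in carcinoma cells and adds no separate support. The calls of Lamc1, Lamb2, Itga1 and Itgb8 were lost in 1, 3, 4 and 3 of the 11, 11, 11 and 10 settings in which they were tested.

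Divided by exon length, so that genes can be ranked against each other, the leading chains of carcinoma cells were Itgb1 at 311 ± 27.3 CPM per kilobase, Itga3 at 217 ± 25.99, Lamb3 at 207 ± 22.2 and Itgb4 at 187 ± 3.75 (SD, n = 3). Itga6 at 133 ± 11.3 and Lama3 at 129 ± 16.9 CPM per kilobase came next, then a drop to Itga5 at 26.1 ± 5.92. The ranges of Itga3, Lamb3 and Itgb4 overlapped within their spread, as did those of Itga6 and Lama3. In macrophages Itgb5 at 209 ± 16.97, Itgb2 at 193 ± 7.18 and Itgax at 187 ± 10.9 CPM per kilobase led and lay within 1 SD of the next in order. Itgb1 at 147 ± 7.60 CPM per kilobase followed, then Itgal with a mean of 62.5 (49.7 to 73.4 over the 3 sums) and Itgam at 61.5 ± 8.67, which did not differ beyond their spread. By these levels Itgb1 and Itgb4 made up 55.9% to 61.2% and 34.7% to 38.0% of all integrin beta transcripts in the single carcinoma libraries. In macrophages Itgb5, Itgb2 and Itgb1 shared the beta transcripts at 34.6% to 39.0%, 33.0% to 37.5% and 25.5% to 28.5% in FceRIa-positive libraries and 34.7% to 40.1%, 32.3% to 36.8% and 24.5% to 26.4% in FceRIa-negative libraries.

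**Figure D1:**
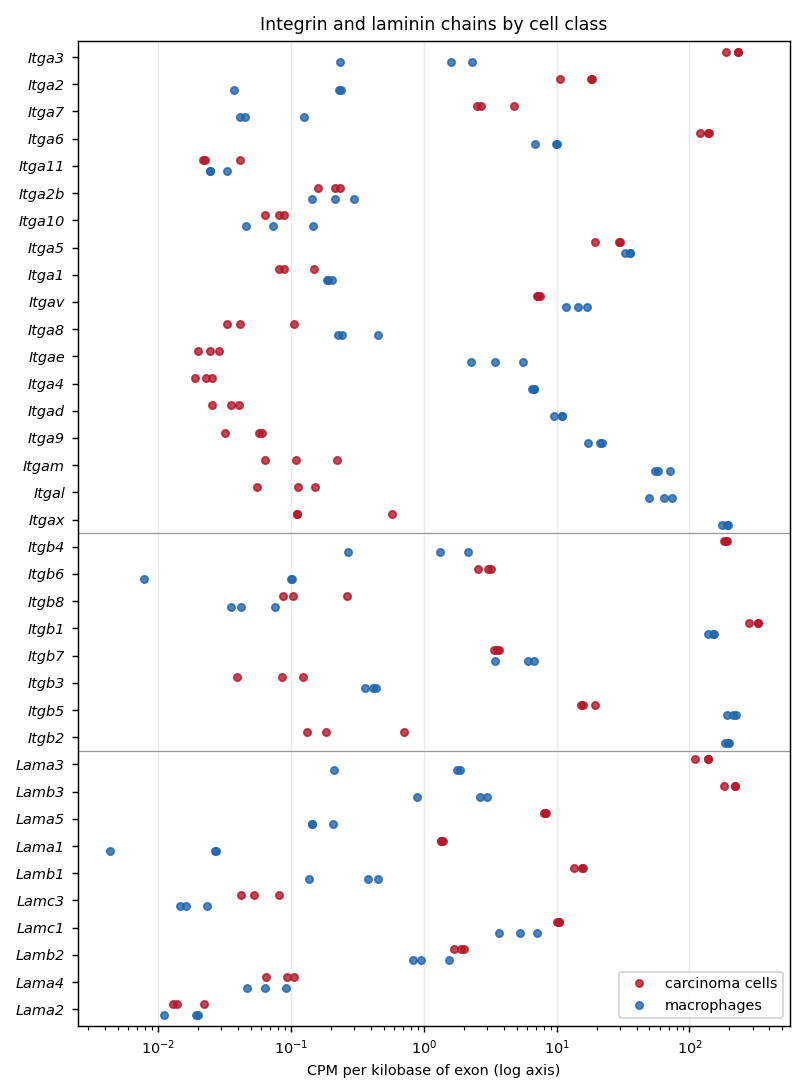
Level of each chain in CPM per kilobase of exon on a log axis, with 3 points per class (carcinoma cells above, macrophages below in each row), each the sum of the positive and negative library of one replicate number; rows run from higher to lower in carcinoma cells within alpha, beta and laminin chains. Itga3, Itgb4, Lama3 and Lamb3 lie far to the right in carcinoma cells, Itgax, Itgal, Itgam and Itgb2 in macrophages, and Itgb1, Itgav and Itga5 are present in both.

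The reporter comparison asks what differs in carcinoma cells with an active TGF-beta reporter. No integrin or laminin chain passed the unpaired test: 0 of 30 tested were called higher and 0 lower, against 0.573% and 0.235% of all 13604 genes (0.809% either way, edgeR), and 3 of 30 had an unadjusted p under 0.05, against 19.4% of all genes. DESeq2 called 1 chain, Itgav, and of all genes 698 higher and 429 lower. Because libraries of the same number deviated together, the fit with the number as a block was run beside it. It called 3 chains higher (Lama3, Lamb3 and Itgav) and 0 lower, 10% of the 30 chains, against 10.7% of all genes called higher, 7.34% lower and 18.0% either way. The share of called chains was thus at or under the background. The median log2 difference was 0.03 over the chains and 0.00 over all genes in both fits.

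The chains that differed were the anchoring laminin and an RGD receptor. Lama3 had 1666, 1312 and 1696 CPM in reporter-positive cells and 1282, 1023 and 1266 CPM in reporter-negative cells. The groups do not overlap, although positive library 2 is only just above the highest negative one. The log2 difference was 0.39 ± 0.14 (edgeR adjusted p = 0.190), and 0.39 ± 0.05 in the paired fit (edgeR adjusted p = 0.00903). Lamb3, its partner chain, had 1535, 1338 and 1558 CPM in reporter-positive cells and 1332, 1041 and 1305 CPM in reporter-negative cells, again touching but not overlapping. Its difference was 0.27 ± 0.12 (edgeR adjusted p = 0.278), and 0.27 ± 0.06 in the paired fit (edgeR adjusted p = 0.0253). Itgav had 85.6, 83.5 and 86.5 CPM in reporter-positive cells and 67.3, 77.4 and 66.4 CPM in reporter-negative cells, with negative library 2 the nearest to the positive ones. Its difference was 0.28 ± 0.08 (edgeR adjusted p = 0.123), and 0.28 ± 0.07 in the paired fit (edgeR adjusted p = 0.0365). These 3 were also the chains whose groups did not overlap, 10% of those tested, against 14.6% of all genes higher and 13.6% lower, 28.2% in all. With libraries 1 and 3 summed, or without pair 1 or pair 3, the paired fit called 0 chains. Of all genes these fits called 691, 1055 and 803 higher and 244, 498 and 340 lower. Without pair 2, which leaves libraries 1 and 3 that differed little, the paired fit called 6 chains higher and 1 lower. That fit called 2927 of all genes higher and 2802 lower.

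Markers of several cell types moved in the same comparison. The 10 keratinocyte markers summed to 77350.4, 97829.5 and 77096 CPM in reporter-positive cells and 77256, 86756 and 78224 CPM in reporter-negative cells, with a median log2 difference of 0.42. Of the 10, 2 were higher in the unpaired fit (Dsp and Dsg3) and 5 in the paired fit (Krt17, Perp, Dsp, Cdh1 and Dsg3), and 0 were lower (edgeR). In the paired fit 3 of 10 macrophage markers (Csf1r, Mrc1 and Lyz2), 2 of 5 neutrophil markers tested (S100a8 and S100a9) and 2 of 3 platelet markers tested (Gp1bb and Ppbp) were also higher. The 7 neutrophil markers summed to 96.3, 379 and 95.6 CPM in reporter-positive cells and 53.2, 82.9 and 61.4 CPM in reporter-negative cells, without overlap. The median unpaired log2 difference over the 5 tested was -0.01, so the rise of the sum does not hold for the whole list. Among the 3 platelet markers tested, 1 was also higher in the unpaired fit. Of 2 Langerhans and dendritic cell markers tested 1 was higher, and the 1 T and NK cell marker tested was lower in the paired fit. The part of these shifts in Lama3, Lamb3 and Itgav was not tested.

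The other laminin chains lay close together. Lamb1 spanned 131 to 163 CPM over the 6 libraries, Lama5 79.2 to 105, Lamc1 67.2 to 97.4, Lama1 9.18 to 16.6 and Lamb2 9.81 to 12.5 CPM. Their log2 differences were 0.12 ± 0.10 for Lamb1, -0.09 ± 0.10 for Lama5, -0.14 ± 0.12 for Lamc1, -0.29 ± 0.18 for Lama1 and 0.08 ± 0.13 for Lamb2, and none of the 5 passed the paired test. Lama3 made up 93.8% to 94.3% of the laminin alpha transcripts per length in reporter-positive cells and 89.6% to 92.8% in reporter-negative cells. For Lamb3 among the beta chains the shares were 92.7% to 93.2% and 91.2% to 92.5%. Lama4 at 0.443 to 1.33 CPM was near the detection limit, and Lama2 and Lamc3 were too low to be tested.

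The laminin receptor chains passed neither test. Itga6 had 1218, 887 and 1233 CPM in reporter-positive cells and 1235, 1253 and 1229.6 CPM in reporter-negative cells, with positive library 2 alone below the rest. Itgb4 had 1337, 1215 and 1319 CPM in reporter-positive cells and 1292, 1338 and 1253 CPM in reporter-negative cells, a log2 difference of -0.00 (95% interval -0.17 to 0.16). Itga3 had 1295, 1005 and 1287 CPM in reporter-positive cells and 1316, 1113 and 1288 CPM in reporter-negative cells (-0.05, 95% interval -0.35 to 0.24). Itgb1 had 1319, 1042 and 1338 CPM in reporter-positive cells and 1294, 1224 and 1286 CPM in reporter-negative cells (-0.04, 95% interval -0.30 to 0.22). In each of Itga3, Itga6, Itgb1 and Itgb4, libraries 1 and 3 agreed closely and positive library 2 was the lowest of the positive ones. Itga7 had 14.5, 39.1 and 14.4 CPM in reporter-positive cells and 27.4, 38.1 and 24.2 CPM in reporter-negative cells (-0.40 ± 0.42, edgeR adjusted p = 0.679; paired edgeR fit -0.52 ± 0.18, adjusted p = 0.0944). Positive libraries 1 and 3 were the lowest for Itga7, and library 2 was the highest of each group. Since the sort gated on CD49f and CD29, the levels of Itga6 and Itgb1 describe cells chosen for those proteins.

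Partners of Itgav gave small differences. Itgb5 had 57.5, 72.1 and 56.7 CPM in reporter-positive cells and 52.2, 65.1 and 49.9 CPM in reporter-negative cells, higher within each pair but overlapping between groups (0.16 ± 0.14, edgeR adjusted p = 0.604; paired edgeR fit 0.16 ± 0.05, adjusted p = 0.0685). Itgb6, which can activate latent TGF-beta, had 22.3, 16.8 and 21.99 CPM in reporter-positive cells and 20.3, 19.2 and 22.8 CPM in reporter-negative cells (-0.03 ± 0.13, edgeR adjusted p = 0.938). Itgb8, the other such chain, had 1.01, 2.03 and 0.959 CPM in reporter-positive cells and 1.22, 3.76 and 0.936 CPM in reporter-negative cells and did not pass either test. Itga5 at 86.6 to 146 CPM and the collagen chain Itga2 at 64.02 to 134 CPM were lowest in library 2 of both groups. Their log2 differences were 0.07 ± 0.23 for Itga5 and -0.01 ± 0.30 for Itga2.

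Of the leukocyte chains, Itgb7 had 9.33, 11.8 and 9.06 CPM in reporter-positive cells and 9.90, 8.31 and 9.33 CPM in reporter-negative cells (0.13 ± 0.14, edgeR adjusted p = 0.683). Itgax had 0.379, 3.71 and 0.462 CPM in reporter-positive cells and 0.654, 1.83 and 0.567 CPM in reporter-negative cells, and Itgb2 had 0.727, 2.33 and 0.391 CPM in reporter-positive cells and 0.398, 1.96 and 0.397 CPM in reporter-negative cells. Both were highest in library 2 of each group, as the macrophage markers were, at 44.4, 122 and 41.1 CPM in reporter-positive cells and 35.5, 87.4 and 33.5 CPM in reporter-negative cells. The part of those cells in these values was not tested. Itgal and Itgam stayed at or below 1.12 CPM, and Itga4, Itgad, Itgae and Itga11 were not tested. Itga9 had 0.316, 0.656 and 0.604 CPM in reporter-positive cells and 0.171, 0.229 and 0.340 CPM in reporter-negative cells, with an unadjusted p under 0.05 and an edgeR adjusted p of 0.235. Itga1, Itga2b, Itga8, Itga10 and Itgb3 lay between 0.164 and 3.4 CPM and passed neither test.

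**Figure D2:**
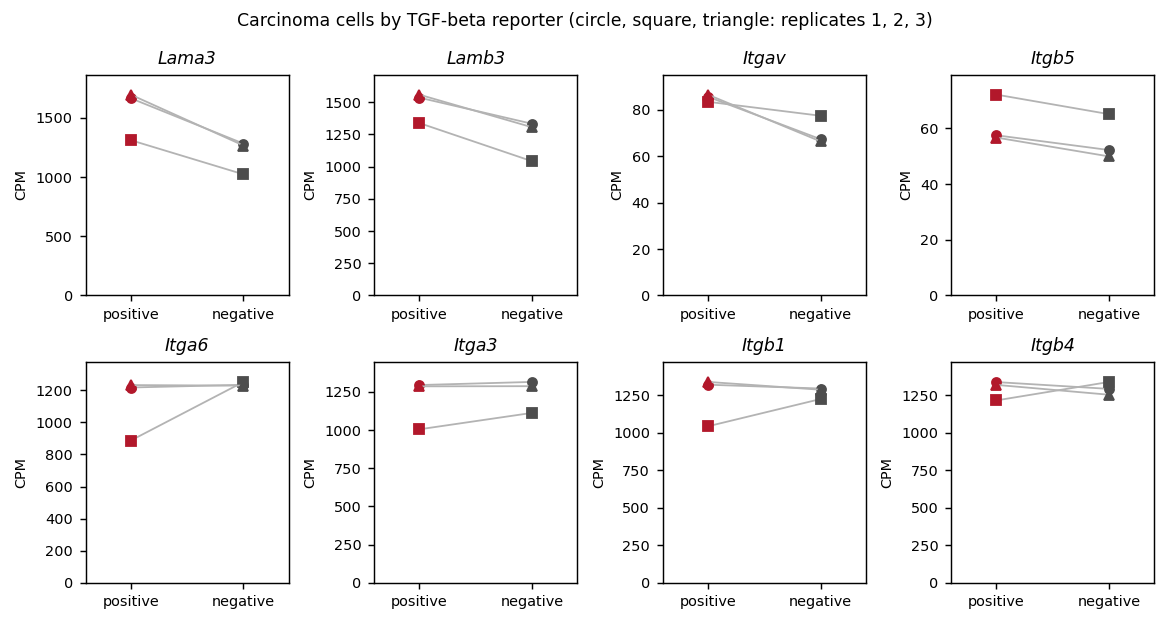
CPM of 8 chains in reporter-positive (left) and reporter-negative (right) carcinoma cells, with a line joining libraries of the same replicate number. Lama3, Lamb3, Itgav and Itgb5 slope down to the negative side in all 3 pairs, while Itga6, Itga3, Itgb1 and Itgb4 are nearly level in replicates 1 and 3.

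The second comparison divides tumor macrophages by surface Fc epsilon receptor I alpha. No chain passed the unpaired test, 0 higher and 0 lower of 33 tested, against 0.00% of all 14988 genes called in either direction (edgeR). At an unadjusted p under 0.05 there were 5 of 33 chains and 15.6% of all genes. DESeq2 called 1 chain higher (Itga9) and 2 lower (Itgae and Itgb7), and of all genes 658 higher and 605 lower. Each macrophage library correlated best with the library of its own number. In the paired fit 4 chains rose in FceRIa-positive macrophages (Itga9, Itgam, Lamb2 and Lamc1) and 8 fell (Itga3, Itgae, Itgb4, Itgb7, Itgb8, Lama3, Lama5 and Lamb3), 36.4% of those tested, against 21.0% of all genes. Of all genes, 10.8% were called higher and 10.2% lower. Without pair 1 the paired fit called 1 chain higher and 4 lower, without pair 2 it called 6 and 5, and without pair 3 it called 3 and 7. In the same order, these fits called 626, 1298 and 1743 of all genes higher and 691, 1374 and 1606 lower. Every positive library lay above every negative one for 5 chains and below for 4, against 11.6% and 9.78% of all genes, 21.4% in all. The median log2 difference was -0.14 over the chains and -0.00 over all genes.

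The receptors that changed most in the paired fit were a Vcam1 and tenascin receptor and the E-cadherin receptor. Itga9 had 235, 221 and 222 CPM in FceRIa-positive macrophages and 98.1, 122 and 54.96 CPM in FceRIa-negative macrophages. The 3 positive libraries were nearly equal and all above the negative ones, of which the third was lowest. The log2 difference was 1.30 ± 0.27 (edgeR adjusted p = 0.0756), and 1.37 ± 0.19 in the paired fit (edgeR adjusted p = 0.00203). Itgae, known as CD103, had 3.95, 4.69 and 4.10 CPM in FceRIa-positive macrophages and 26.8, 15.2 and 49.96 CPM in FceRIa-negative macrophages, a difference of -2.85 ± 0.43 (edgeR adjusted p = 0.0585; paired edgeR fit -2.69 ± 0.30, adjusted p = 0.000885). The positive libraries were again nearly equal, and the negative ones ranged over more than their mean. Its partner Itgb7 had 9.89, 3.60 and 9.46 CPM in FceRIa-positive macrophages and 23.5, 14.5 and 29.7 CPM in FceRIa-negative macrophages (-1.56 ± 0.43, edgeR adjusted p = 0.136; paired edgeR fit -1.61 ± 0.14, adjusted p = 0.000396). Itga9, Itgae, Itgb7 and Lama5 were called in all 5 paired settings, including those that left out 1 pair. The genes lie at chr9:118606690-118901003 (Itga9), chr11:73090583-73147446 (Itgae) and chr15:102215995-102231944 (Itgb7) on GRCm38.

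Markers of other cell types moved with Itgae and Itgb7. The 9 Langerhans and dendritic cell markers summed to 50.2, 76.9 and 77.1 CPM in FceRIa-positive macrophages and 305, 409.7 and 797 CPM in FceRIa-negative macrophages, and 6 of 8 tested were lower in the paired fit (Cd207, Epcam, Flt3, Zbtb46, Ccr7 and Dpp4). Like Itgae, this sum was highest in negative library 3, although negative library 1 exceeded library 2 for Itgae and not for the sum. The 10 T and NK cell markers, whose sum is mostly Cd4, gave 127, 173 and 142 CPM in FceRIa-positive macrophages and 84.8, 77.5 and 77.8 CPM in FceRIa-negative macrophages, with Cd3d, Cd3g, Cd2, Lck and Klrb1c lower in the paired fit. The 10 macrophage markers ran the other way, at 30895, 29376 and 32505 CPM in FceRIa-positive macrophages and 20629, 19246 and 16474 CPM in FceRIa-negative macrophages, 8 of 10 higher in the paired fit. The 8 mast cell and basophil markers summed to 5.80, 6.80 and 8.87 CPM in FceRIa-positive macrophages and 15.8, 15.8 and 25.1 CPM in FceRIa-negative macrophages, without overlap, and Kit, Mcpt8 and Ms4a2 were lower in the paired fit. The 7 neutrophil markers summed to 398, 153 and 276 CPM in FceRIa-positive macrophages and 687, 135 and 689 CPM in FceRIa-negative macrophages, with overlap, and 4 of 6 tested were lower in the paired fit (S100a8, S100a9, Cxcr2 and Retnlg). The part of these cells in the integrin values was not tested.

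In the Itgb2 family 1 of 5 chains was called in the paired fit, which called 21.0% of all genes. Itgam had 401, 312 and 371 CPM in FceRIa-positive macrophages and 325, 274 and 206 CPM in FceRIa-negative macrophages, higher within every pair but overlapping between groups. Its difference was 0.43 ± 0.19 (edgeR adjusted p = 0.355), and 0.45 ± 0.13 in the paired fit (edgeR adjusted p = 0.0440), a call made in 3 of 5 paired settings. Itgax had 712, 933 and 891 CPM in FceRIa-positive macrophages and 966, 929 and 1025 CPM in FceRIa-negative macrophages (-0.20, 95% interval -0.55 to 0.14), with positive library 1 below the other 5. Itgal had 438, 369 and 522 CPM in FceRIa-positive macrophages and 415, 285 and 491 CPM in FceRIa-negative macrophages, and Itgad had 38.9, 47.7 and 48.7 CPM in FceRIa-positive macrophages and 47.5, 50.1 and 55.2 CPM in FceRIa-negative macrophages. Neither passed a test, and the groups overlap for both. Itgb2 itself had 643, 590.2 and 723 CPM in FceRIa-positive macrophages and 560.5, 536 and 553 CPM in FceRIa-negative macrophages, without overlap (0.25 ± 0.12, edgeR adjusted p = 0.421; paired edgeR adjusted p = 0.106). As shares of the alpha transcripts per length, Itgax held 36.2% to 46.2% in FceRIa-positive and 47.3% to 51.1% in FceRIa-negative libraries, and Itgam 14.8% to 19.5% and 9.83% to 15.2%.

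Itgb1, Itgb5 and several of the alpha chains that pair with them passed neither test. Itgb1 had 684, 656 and 657 CPM in FceRIa-positive macrophages and 553, 586 and 526 CPM in FceRIa-negative macrophages, with no overlap (0.26 ± 0.11, edgeR adjusted p = 0.311; paired edgeR adjusted p = 0.0699). Itga4 had 99.5, 98.7 and 105 CPM in FceRIa-positive macrophages and 86.2, 88.9 and 93.9 CPM in FceRIa-negative macrophages (0.17 ± 0.09, edgeR adjusted p = 0.435; paired edgeR adjusted p = 0.118). Itgav had 179, 184 and 170.0 CPM in FceRIa-positive macrophages and 137, 181 and 96.01 CPM in FceRIa-negative macrophages (0.37 ± 0.22, edgeR adjusted p = 0.522; paired edgeR adjusted p = 0.0694), where negative library 3 was the lowest. Itga6 had 98.8, 91.97 and 79.4 CPM in FceRIa-positive macrophages and 85.8, 87.2 and 49.8 CPM in FceRIa-negative macrophages (paired 0.31 ± 0.11, edgeR adjusted p = 0.0899). Itgb5, a leading beta chain beside Itgb2, had 724, 811 and 813 CPM in FceRIa-positive macrophages and 786, 774 and 608 CPM in FceRIa-negative macrophages (0.11 ± 0.14). Itga5 spanned 154 to 192 CPM (0.05 ± 0.12). Of the low chains, Itgb8 fell in the paired fit at 0.265 to 1.07 CPM (-1.08 ± 0.31, edgeR adjusted p = 0.0428), a call found in 1 of 5 paired settings. The platelet integrin chain Itga2b had 0.773, 0.710 and 0.884 CPM in FceRIa-positive macrophages and 0.804, 1.53 and 2.52 CPM in FceRIa-negative macrophages and did not pass, while 6 platelet markers summed to 382, 219.7 and 294 CPM in FceRIa-positive macrophages and 78.4, 74.8 and 21.3 CPM in FceRIa-negative macrophages. Itga1, Itga2, Itga7, Itga8, Itga10, Itgb3 and Itgb6 also passed neither test.

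**Figure D3:**
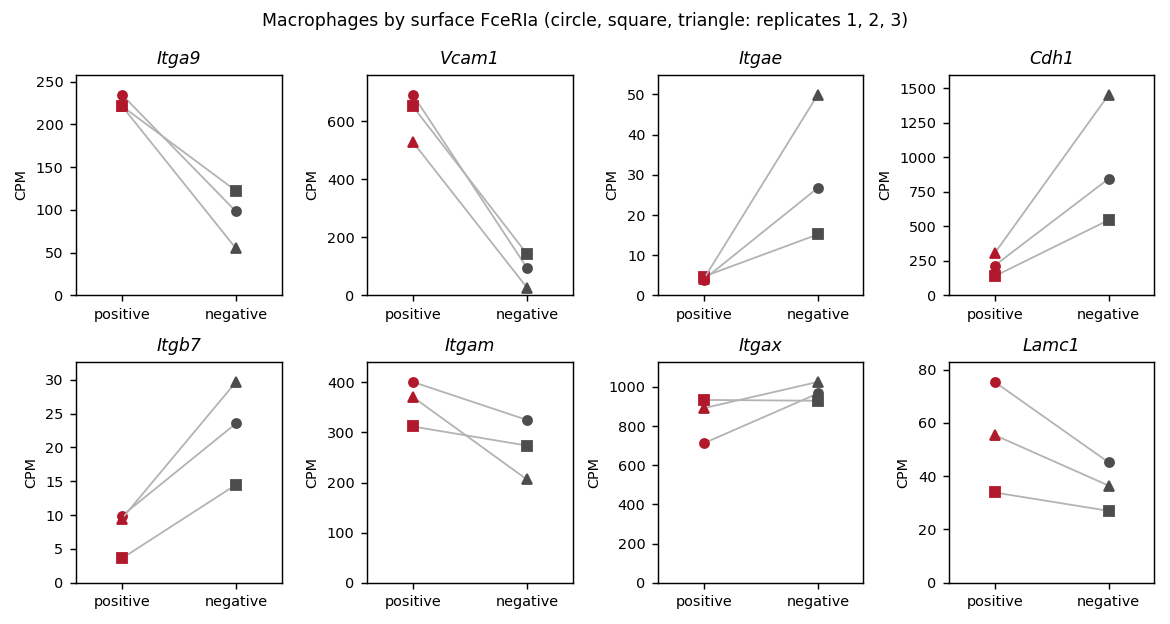
CPM of 6 chains and of the ligands Vcam1 and Cdh1 in FceRIa-positive (left) and FceRIa-negative (right) macrophages, with a line joining libraries of the same replicate number. Itga9 and Vcam1 are higher, and Itgae, Itgb7 and Cdh1 lower, in every positive library than in any negative one, whereas Itgam and Itgax overlap.

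Among the laminins, Lamc1 and Lamb2 rose in the paired fit. Lamc1 had 75.4, 33.9 and 55.4 CPM in FceRIa-positive macrophages and 45.1, 26.98 and 36.4 CPM in FceRIa-negative macrophages, higher within each pair and overlapping between groups. Its difference was 0.60 ± 0.31 (edgeR adjusted p = 0.448), and 0.56 ± 0.09 in the paired fit (edgeR adjusted p = 0.00391). Lamb2 had 12.5, 5.59 and 7.69 CPM in FceRIa-positive macrophages and 6.81, 4.53 and 4.53 CPM in FceRIa-negative macrophages (paired 0.65 ± 0.15, edgeR adjusted p = 0.0185). The 8 fibroblast markers summed to 268, 78.8 and 100.4 CPM in FceRIa-positive macrophages and 149.5, 105 and 146 CPM in FceRIa-negative macrophages, and 0 of 8 passed the paired test (edgeR). The 8 endothelial markers summed to 88.9, 56.7 and 86.1 CPM in FceRIa-positive macrophages and 60.97, 42.5 and 47.4 CPM in FceRIa-negative macrophages, higher within every pair as Lamc1 and Lamb2 were. Pecam1, the most abundant of them, was the 1 of 8 that passed the paired test (edgeR adjusted p = 0.000395). The median unpaired log2 difference over these 8 was -0.19, so the rise of the sum does not hold for the list as a whole. The part of these cells in Lamc1 and Lamb2 was not tested. Lama5 had 1.96, 0.791 and 0.766 CPM in FceRIa-positive macrophages and 2.76, 2.37 and 2.66 CPM in FceRIa-negative macrophages (paired -1.23 ± 0.29, edgeR adjusted p = 0.0203). Lamb1, Lama2 and Lama4 did not pass, and Lama1 and Lamc3 were too low to be tested.

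The epithelial chains Itga3, Itgb4, Lama3 and Lamb3 fell in the paired fit, and their range within a group was wider than the gap between the group means. None of them passed the unpaired test, where the edgeR adjusted p was 0.647 to 0.999 with 1 library left out. Itgb4 had 13.1, 7.56 and 1.47 CPM in FceRIa-positive macrophages and 17.4, 10.7 and 2.49 CPM in FceRIa-negative macrophages (paired -0.52 ± 0.13, edgeR adjusted p = 0.0230). Itga3 had 11.3, 6.52 and 0.648 CPM in FceRIa-positive macrophages and 14.98, 11.4 and 2.16 CPM in FceRIa-negative macrophages (paired -0.80 ± 0.21, edgeR adjusted p = 0.0289). In both, replicate 3 was lowest and replicate 1 highest in each group. Lama3 had 16.4, 12.6 and 1.94 CPM in FceRIa-positive macrophages and 21.8, 26.2 and 2.81 CPM in FceRIa-negative macrophages (paired -0.69 ± 0.15, edgeR adjusted p = 0.0136). Lamb3 had 15.2, 12.8 and 2.56 CPM in FceRIa-positive macrophages and 24.3, 21.3 and 9.91 CPM in FceRIa-negative macrophages (paired -1.03 ± 0.22, edgeR adjusted p = 0.0125).

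Keratinocyte markers moved with these 4 chains. Their sum was 2697, 1771 and 526 CPM in FceRIa-positive macrophages and 4308, 3064 and 1749 CPM in FceRIa-negative macrophages, with 9 of 10 lower in the paired fit and none at 0. Cdh1, which is also one of the 10 and was higher in macrophages than in carcinoma cells, made up 8.03%, 7.89% and 58.2% of that sum in FceRIa-positive macrophages and 19.6%, 17.8% and 83.2% in FceRIa-negative macrophages. Without Cdh1 the sum of the other 9 was 2480.1, 1631 and 219.9 CPM in FceRIa-positive macrophages and 3462, 2517 and 294 CPM in FceRIa-negative macrophages, lower within every pair. Krt14, the basal keratin, had 1189, 789 and 97.2 CPM in FceRIa-positive macrophages and 1706, 1237 and 129 CPM in FceRIa-negative macrophages, and replicate 3 was lowest here as well. Per 1000 Krt14 reads, macrophage libraries held 8.67 to 19.2 reads of Itgb4, 6.67 to 16.7 of Itga3, 12.8 to 21.8 of Lama3 and 12.8 to 76.8 of Lamb3. Carcinoma libraries held 29.5 to 40.9 of Itgb4, 24.4 to 39.9 of Itga3, 27.0 to 52.6 of Lama3 and 27.5 to 48.3 of Lamb3. The macrophage libraries thus had fewer reads of each chain per Krt14 read than the carcinoma libraries, except for Lamb3 in FceRIa-negative library 3, without which the highest value for Lamb3 was 26.4. Itga6 and Lamc1 had more reads per Krt14 read in macrophage than in carcinoma libraries, at 50.3 to 817 and 21.8 to 570 reads per 1000 in macrophage libraries and 21.5 to 38.2 and 1.63 to 2.74 in carcinoma libraries. The part of keratinocyte RNA in the 4 chains was not tested.

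**Figure D4:**
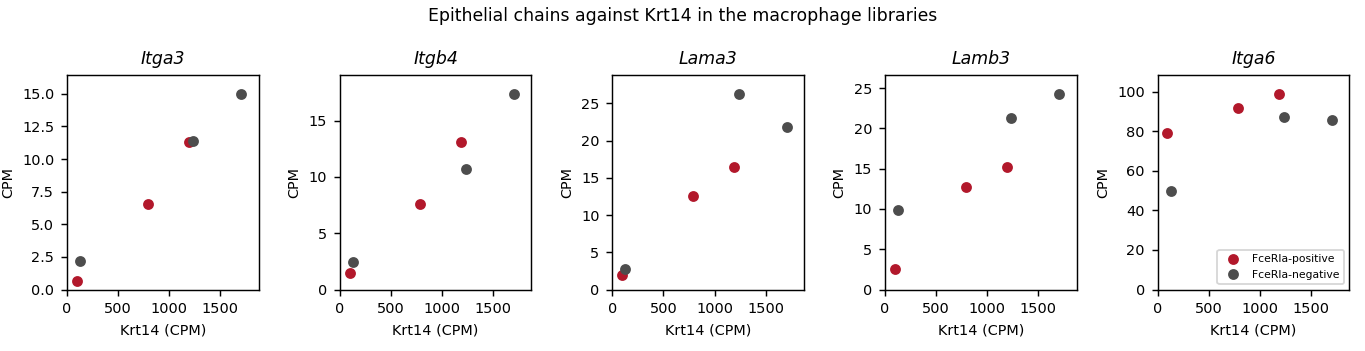
CPM of 5 laminin-related chains (vertical axes) against CPM of Krt14 (horizontal axis) in the 6 macrophage libraries, 1 point per library. Itga3, Itgb4, Lama3 and Lamb3 are lowest in the 2 libraries with the least Krt14, and Itga6 is lowest there too, at 79.4 CPM in FceRIa-positive and 49.8 CPM in FceRIa-negative macrophages of replicate 3 and 85.8 to 98.8 CPM in the other 4 libraries.

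**Figure D5:**
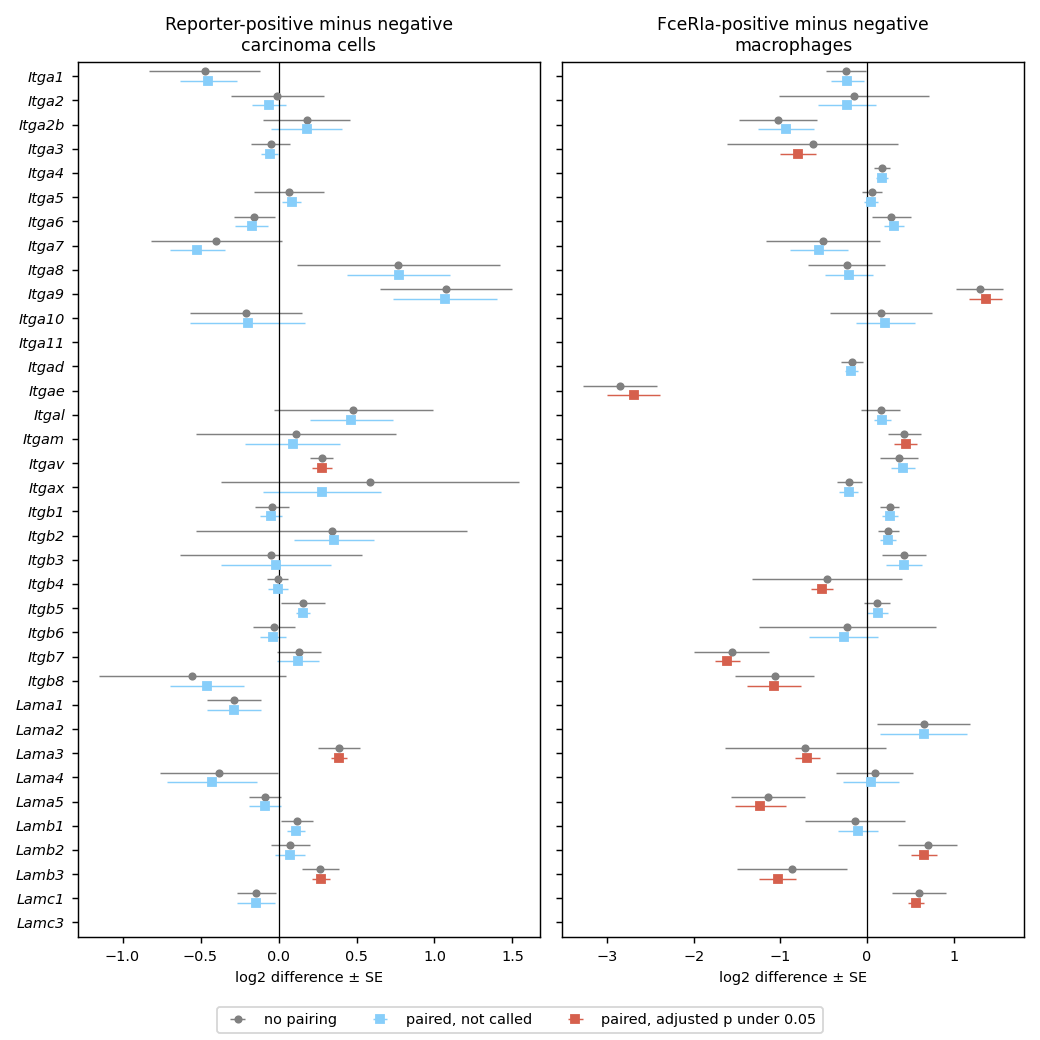
Log2 difference ± SE of each chain, positive minus negative, in carcinoma cells (left) and macrophages (right), from the unpaired fit (grey circles) and the paired fit (squares, red where called); Itga11 and Lamc3 were tested in neither, and gaps mark chains not tested in that comparison. The estimates of the 2 fits lie close together and the paired standard errors are mostly shorter, with 3 chains called in carcinoma cells and 12 in macrophages.

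Genes that work with these chains were counted from lists of ligands, adaptors and basement membrane components. The median log2 difference in carcinoma cells was -0.06 for adaptors, -0.07 for hemidesmosome partners, -0.16 for basement membrane genes, 0.15 for integrin ligands and 0.57 for ligands of leukocyte integrins, against 0.00 over all genes. In carcinoma cells 1 list gene passed the unpaired test: Bcam, a laminin receptor outside the integrin family, had 199, 199 and 192 CPM in reporter-positive cells and 273, 279.9 and 261 CPM in reporter-negative cells, without overlap (-0.46 ± 0.06, edgeR adjusted p = 0.0412). This call was lost with libraries 1 and 3 summed (edgeR adjusted p = 0.681) and without any single library but positive library 2 (edgeR adjusted p = 0.0959 to 0.259). Of the 8 hemidesmosome partners Bcam was also the one called in the paired fit (edgeR adjusted p = 0.00492). Of 25 adhesion adaptors, 1 rose and 3 fell in the paired fit, which called 10.7% of all genes higher and 7.34% lower. Zyx, a focal adhesion protein, had 265, 194 and 262 CPM in reporter-positive cells and 350.3, 234 and 330.2 CPM in reporter-negative cells (paired -0.33, edgeR adjusted p = 0.0117). Tns1 changed by -0.57, Tln1 by -0.26 and Fermt2, an integrin activator, by 0.50 on the log2 scale in the same fit. Basement membrane genes gave 1 higher and 1 lower of 12: Col4a1 at 0.22 (edgeR adjusted p = 0.0233) and Fras1 at -0.95 (edgeR adjusted p = 0.00864).

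Beside the same all-gene shares, 1 of 13 integrin ligands tested in carcinoma cells fell in the paired fit: Ltbp1, which holds latent TGF-beta in the matrix, had 93.5, 66.02 and 89.7 CPM in reporter-positive cells and 109, 108 and 106 CPM in reporter-negative cells (-0.39, edgeR adjusted p = 0.0458). Ligands of leukocyte integrins gave 3 higher and 0 lower of 5 tested. Cdh1, E-cadherin, had 282, 367 and 279.9 CPM in reporter-positive cells and 202, 226 and 197 CPM in reporter-negative cells (0.57 ± 0.12, edgeR adjusted p = 0.0881; paired edgeR adjusted p = 0.00580). F11r, a junctional ligand of Itgal with Itgb2, differed by 0.30 and Jam2 by 0.57, with paired edgeR adjusted p of 0.0246 and 0.0264. The groups do not overlap for Cdh1, F11r or Jam2.

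In macrophages the medians were -0.08, -0.34, -0.09, -0.09 and -0.32 in the same order. No list gene passed the unpaired test, and in the paired fit, which called 21.0% of all genes in either direction, ligands of Itga9 and Itgae were among the calls. Vcam1, a ligand of Itga4 and Itga9, had 692, 652 and 529 CPM in FceRIa-positive macrophages and 95.4, 143 and 27.3 CPM in FceRIa-negative macrophages (2.82 ± 0.56, edgeR adjusted p = 0.0682; paired edgeR fit 3.08, adjusted p = 0.000887). Cdh1, the ligand of Itgae with Itgb7, had 217, 139.7 and 306 CPM in FceRIa-positive macrophages and 846, 547 and 1455 CPM in FceRIa-negative macrophages (-2.10 ± 0.43, edgeR adjusted p = 0.0703; paired edgeR fit -2.06, adjusted p = 5.71e-05). Neither gene's groups overlap, and F11r also fell, giving 1 higher and 2 lower of 7. Of 14 integrin ligands, 2 rose (Fn1 and Thbs1) and 3 fell (Mfge8, Tnc and Cyr61). Mfge8, a bridge between dying cells and Itgav integrins, had 140.2, 159.8 and 178 CPM in FceRIa-positive macrophages and 548, 502 and 1357 CPM in FceRIa-negative macrophages (paired -2.18, edgeR adjusted p = 0.000611). Fn1 differed more between replicates than between groups, with 2567, 546 and 2222 CPM in FceRIa-positive macrophages and 1647, 352 and 1672 CPM in FceRIa-negative macrophages (paired edgeR adjusted p = 0.00717). Tnc, a ligand of Itga9, changed by -0.60 (edgeR adjusted p = 0.00937).

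Adaptors gave 4 higher and 4 lower of 24 tested in the paired macrophage fit, as against 10.8% of all genes higher and 10.2% lower. Tns1, a tensin that binds integrin beta tails, had 181, 90.3 and 106 CPM in FceRIa-positive macrophages and 47.5, 39.3 and 33.9 CPM in FceRIa-negative macrophages (paired 1.59, edgeR adjusted p = 0.000274). Tln2, a talin, rose by 1.87 and Parvb by 0.67 on the log2 scale, with paired edgeR adjusted p of 0.000748 and 0.000885. Basement membrane genes gave 2 higher and 0 lower of 9: Nid2, a nidogen that links laminin to collagen, had 28.3, 16.4 and 20.2 CPM in FceRIa-positive macrophages and 9.47, 7.79 and 8.64 CPM in FceRIa-negative macrophages (paired 1.30, edgeR adjusted p = 0.000450), and Col4a1 changed by 0.34. Of 8 hemidesmosome partners 3 fell (Krt5, Krt14 and Col17a1, all keratinocyte genes) and 1 rose (Dag1).

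Between the cell classes the median log2 difference was 3.75 for hemidesmosome partners, 3.77 for basement membrane genes, 1.17 for adaptors, 0.42 for integrin ligands and -1.15 for ligands of leukocyte integrins, against -0.12 over all genes. All 8 hemidesmosome partners were higher in carcinoma cells, Cd151 by 1.93, Bcam by 6.04 and Dag1 by 1.69 on the log2 scale (edgeR adjusted p = 1.84e-05, 6.61e-05 and 0.000185). Of 12 basement membrane genes 10 were higher and 2 lower, among them Agrn, a laminin-binding proteoglycan, with 295, 269 and 289 CPM in carcinoma cells and 26.8, 24.7 and 26.1 CPM in macrophages. Ntn4 differed by 4.07 and Hspg2, perlecan, by 5.28. Adaptors were split, with 15 higher and 10 lower of 26: Tns4 had 889, 700.4 and 868 CPM in carcinoma cells and 45.1, 42.9 and 43.97 CPM in macrophages, Vcl differed by 3.05, and Parvg, the leukocyte parvin, had 0.275, 0.479 and 0.161 CPM in carcinoma cells and 246, 231 and 272 CPM in macrophages. Integrin ligands gave 5 higher and 5 lower of 14, with Tgfb3 at 3.96, Cyr61 at 6.27 and Tnc at 4.69, all higher in carcinoma cells. The summed level of the ligand list went the other way, at 930 to 968 CPM in carcinoma cells and 2386 to 4796 CPM in macrophages. Ligands of leukocyte integrins gave 1 higher and 5 lower of 7, with Vcam1 at -9.04, Icam2 at -3.23 and Jam2 at 4.17. All-gene shares of 36.8% higher and 42.0% lower stand beside these counts.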

How the data were processed

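For 6 carcinoma and 6 macrophage libraries the authors deposited raw read counts by gene, which were used as they stand. Their processing notes name FastQC, STAR and the genome mm10 (GRCm38). No source used here gives the counting tool, a strand setting or the annotation, and reads of overlapping genes therefore cannot be told apart. Per the labels' protocols, Trizol extraction was followed by Illumina TruSeq v2 preparation of 100 ng RNA. Total counts were 27951632 to 40041144 per library. Counts of 4 columns that match no sample of the series were not used.

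Members were matched by gene ID. Of the 2 rows named Itgam, the one with the ID of GENCODE's Itgam was read; the other held 0 to 12 counts. The members, the pathway lists and the marker lists were chosen with earlier results of these data known. Members were all described, and from each pathway list up to 3 genes with the smallest p among those called in the unpaired or paired fit; further list genes are named only where a count of 5 or fewer called for it, after their values were seen. Of 166 list genes, 2 had no row, both newer symbols of genes listed under an older one.

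Tests used edgeR 4.0.16 under R 4.3.3 (TMM, filterByExpr, quasi-likelihood test, Benjamini-Hochberg adjustment over all genes, threshold 0.05), separately in 6 carcinoma libraries (13604 genes), 6 macrophage libraries (14988 genes) and 3 against 3 sums of a replicate number (16843 genes). The genes kept hold 99.9% of counts. Differences are log2, positive minus negative or carcinoma minus macrophage, with standard errors, and CPM uses TMM library sizes within each comparison. Levels between genes are CPM per kilobase of GENCODE M21 exon. The same code was tested on simulated data with independent libraries and no replicate effect. That test therefore does not cover the paired fit on libraries that deviate together. The reported fit is unpaired, and a fit blocked on replicate number is its alternative. Same-numbered carcinoma libraries deviated from their group means with correlations of 0.597, 0.742 and 0.588, and same-numbered macrophage libraries with 0.738, 0.845 and 0.763, all over 0.1. The paired value is therefore given where the call differs, beside the unpaired one or, for several chains and list genes, alone. Carcinoma libraries 1 and 3 correlated as well across numbers (0.593 and 0.606), so there the number separates replicate 2 from the others only. Residual degrees of freedom were 4 unpaired and 2 paired. Alternatives were other normalizations, DESeq2 1.42.0, other filters, an unadjusted p under 0.01, leaving out libraries or pairs, summing carcinoma libraries 1 and 3, and single groups for the cell classes. The paired fit with libraries 1 and 3 summed was chosen after seeing the data.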

Additional observations from a re-analysis of the deposited data

How the results depend on the processing

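In carcinoma cells, chains called higher numbered 0 in the unpaired fit, 1 with DESeq2, 1 at an unadjusted p under 0.01, 3 with the replicate block, 3 with the block in DESeq2 (and 1 lower), and 0 to 6 (with 0 to 1 lower) when the block was fitted without 1 pair. All genes called there, higher and lower, numbered 78 and 32 unpaired, 698 and 429 with DESeq2, 173 and 36 with no count filter, 657 and 400 at an unadjusted p under 0.01, 1450 and 999 with the block, and 1027 and 629 with the block in DESeq2. They numbered 0 and 0 with libraries 1 and 3 summed, 691 and 244 with these summed and the block, 0 to 391 and 0 to 230 without 1 library, and with the block 1055 and 498 without pair 1, 2927 and 2802 without pair 2 and 803 and 340 without pair 3. The difference of Itga2 was -0.01 unpaired and 0.11 with the block and without pair 2. In macrophages, chains called higher and lower numbered 0 and 0 unpaired, 1 and 2 with DESeq2, with no count filter or at an unadjusted p under 0.01, 4 and 8 with the block, 6 and 7 with the block in DESeq2, and with the block 1 and 4 without pair 1, 6 and 5 without pair 2 and 3 and 7 without pair 3. All genes called there numbered 0 and 0 unpaired, 658 and 605 with DESeq2, 292 and 331 with no count filter, 552 and 480 at an unadjusted p under 0.01, 1618 and 1524 with the block, 1443 and 1359 with the block in DESeq2, with the block 626 and 691 without pair 1, 1298 and 1374 without pair 2 and 1743 and 1606 without pair 3, and 0 and 0 to 2 without 1 library. The cause of these shifts was not tested. Counts between cell classes stayed within 1.5 times the reported ones in every setting run. There the median of all genes moved to -0.10 with DESeq2 size factors, -0.04 with upper-quartile factors and -0.82 with no count filter. Chains under 1 CPM in both groups rest on few reads, which limits how small a difference could be detected in them.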
